A study of Mus musculus with 10 samples.

Results

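Chitinases and alternative activation genes are a set of 10 mouse genes chosen by symbol, namely Chit1, Chil3, Chil1, Arg1, Retnla, Il4ra, Stat6, Fn1, Pdcd1lg2 and Clec10a, and all 10 were found among the 54532 genes of the deposited table. Their RNA was measured by sequencing in primary peritoneal macrophages, phagocytes that patrol the lining of the abdomen, to ask how deletion of Trem1 bears on expression with age. The 10 libraries form 3 groups: aged mice labelled Trem1-/- (replicates 1, 2 and 3), aged wild-type mice (3, 4 and 6) and young wild-type mice (A, B, C, E). Ages are given as words only, there is no young Trem1-/- group, and the labels state no sex, batch, isolation step, deletion design or separate mice, so p-values measure only how far these libraries scatter, and that scatter may be technical. Values per library keep the order just given. They are normalized counts, deposited by the authors and, from the values, equal to reads divided by 1 factor per library, and log2 fold changes come with their standard error (SE).

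Alternative activation is the state that macrophages enter when interleukin-4 or interleukin-13 binds the receptor chain encoded by Il4ra and the transcription factor Stat6 is phosphorylated. Classical Stat6 targets in mouse macrophages are Arg1, Retnla, Chil3, Pdcd1lg2 and Clec10a, and fibronectin, the product of Fn1, is a matrix protein that resident peritoneal macrophages make in large amounts. Chitinases cleave chitin, while chitinase-like proteins share the fold and lack the cleaving activity; macrophage chitotriosidase, encoded by Chit1, is known in humans as a blood marker of lipid-laden macrophages.

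The libraries held 2663744 to 5603498 reads. Trem1, the targeted gene, had 23.5, 106 and 13.8 normalized counts in libraries 1, 2 and 3 labelled Trem1-/-, against 64.0, 15.3 and 27.0 in aged wild type. The exact two-sided permutation test gave p = 0.9, where 0.1 is the smallest that 3 against 3 allows. The mean of Trem1 was thus not lower under the Trem1-/- label, the part of the gene that was deleted is not given, and each direction below rests on the label. The preparations also differed in other ways. Summed macrophage markers (Adgre1, Csf1r and 8 others, all 10 read) ran from 62055 to 81688 in the libraries labelled Trem1-/-, from 23908 to 37293 in aged wild type and from 71980 to 79857 in young wild type. Summed B cell markers (18 genes, none at 0) ran from 7621 to 15271, from 16753 to 25986 and from 3295 to 6778 in the same order of groups. Summed small peritoneal macrophage and monocyte markers overlapped between all groups, at 6554 to 8467, 6948 to 8567 and 6975 to 8423. Summed mesothelial and fibroblast markers ran from 22.5 to 533, from 668 to 740 and from 12.3 to 530. In bulk RNA, fewer cells of a type and less RNA per cell cannot be told apart.

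Because several of the set are Stat6 targets, the 250 bases before the RefSeq transcription start (GRCm38.p6) are shown for 4 genes whose values the results turn on: Chit1 and Pdcd1lg2, which have the widest ranges of group means of log2(normalized count + 1), Chil3, which is high in 1 library, and Retnla. Capitals mark TTCNNNNGAA, the spacing that Stat6 is known to prefer, or TTCNNNGAA, the spacing shared by other STAT factors. Both motifs read the same on either strand, and matches to them may overlap.
Chit1, chr1:134110992-134111241, plus strand: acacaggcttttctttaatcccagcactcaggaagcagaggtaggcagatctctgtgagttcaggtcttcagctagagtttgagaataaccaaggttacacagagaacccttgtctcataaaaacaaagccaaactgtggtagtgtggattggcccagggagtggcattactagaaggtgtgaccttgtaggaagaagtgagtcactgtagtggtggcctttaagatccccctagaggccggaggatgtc
Chil3, chr3:106167565-106167814, minus strand: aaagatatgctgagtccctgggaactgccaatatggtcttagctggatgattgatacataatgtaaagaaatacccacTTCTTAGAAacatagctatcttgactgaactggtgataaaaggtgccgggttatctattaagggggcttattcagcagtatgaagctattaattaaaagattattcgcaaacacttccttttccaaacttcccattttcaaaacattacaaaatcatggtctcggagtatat
Retnla, chr16:48842359-48842608, plus strand: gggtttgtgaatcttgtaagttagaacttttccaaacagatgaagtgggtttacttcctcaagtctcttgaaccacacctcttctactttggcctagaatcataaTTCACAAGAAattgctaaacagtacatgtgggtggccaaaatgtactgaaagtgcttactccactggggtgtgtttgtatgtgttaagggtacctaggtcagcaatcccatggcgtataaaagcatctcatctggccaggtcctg
Pdcd1lg2, chr19:29410669-29410918, plus strand: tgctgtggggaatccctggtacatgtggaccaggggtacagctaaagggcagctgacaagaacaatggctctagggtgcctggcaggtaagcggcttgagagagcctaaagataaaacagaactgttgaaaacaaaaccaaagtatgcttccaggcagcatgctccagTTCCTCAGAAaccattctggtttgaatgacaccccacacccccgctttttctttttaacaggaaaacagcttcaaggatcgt
Retnla held TTCNNNNGAA starting 145 bases and Pdcd1lg2 82 bases before the start, Chil3 held TTCNNNGAA 172 bases before it, and Chit1 held neither. Entries existed for 7 of the 10 genes, and those of Il4ra, Stat6 and Chil1 held neither motif. Among all 32851 promoters of this length, 5.85% held TTCNNNNGAA and 7.02% held TTCNNNGAA. A match is a description of these letters and not a binding site.

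Levels are comparable between genes only per length, here as normalized counts per kilobase of annotated exon. Fn1 stood far above the others, with 13956 in libraries labelled Trem1-/-, 5591 in aged wild type and 18033 in young wild type. Retnla followed with 1507, 804 and 1784, then Arg1 with 433, 379 and 396 and Stat6 with 209, 175 and 199.7, in the same order of groups. Il4ra had 134, 132 and 69.9 per kilobase, and Clec10a 46.3, 23.4 and 53.0. Chil3 had 304, 8.73 and 13.6, the first value carried by 1 library. Chit1 had 17.5, 12.4 and 0.0848 per kilobase and Pdcd1lg2 11.5, 39.3 and 5.56, so the order of these low genes differed between the groups. Chil1 had 0.121, 0.648 and 0.485.

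**Figure D1:**
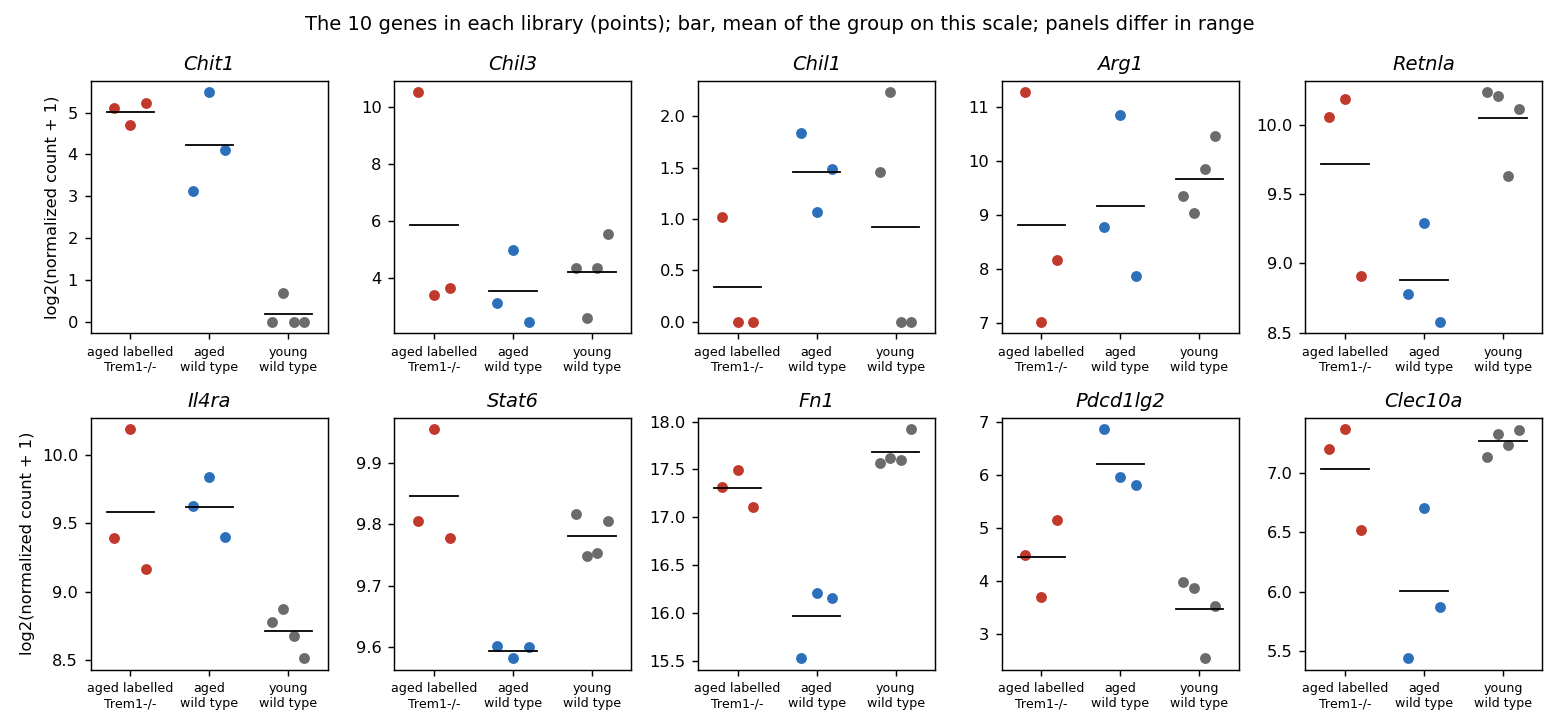
Level of each of the 10 genes as log2(normalized count + 1) in every library (points), by group from left to right, aged labelled Trem1-/- (3 libraries), aged wild type (3) and young wild type (4); the bar is the group mean and each panel has its own range. Chit1 is near 0 in all 4 young libraries, Pdcd1lg2 is highest in aged wild type, Fn1 is lowest there, and Chil3 has a single high library at 1469 normalized counts.

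Tested over the 11506 genes whose mean reached 10 normalized counts (limma on log2(normalized count + 1), adjusted p under 0.05), 3 of the 9 genes tested changed between libraries labelled Trem1-/- and aged wild type. Fn1 and Clec10a were higher and Pdcd1lg2 was lower, set against 18.4% of all tested genes changed, 11.5% higher and 6.82% lower. Between aged and young wild type 6 of the 9 changed, with Chit1, Il4ra and Pdcd1lg2 higher and Retnla, Fn1 and Clec10a lower, where 33.3% of all genes changed, 14.3% higher and 19% lower. Between libraries labelled Trem1-/- and young wild type only Chit1 changed, being higher, among 0.921% of all genes, 0.591% higher and 0.33% lower. The median log2 fold change of the 9 genes was 0.78, -0.51 and 0.06 in these 3 comparisons, against 0.02, -0.02 and 0.01 over all genes tested. The comparisons share libraries: aged wild type stands in the first and, on the other side, in the second. Chil1 did not pass the filter and was tested apart. Chit1, whose young mean lies under the filter, could pass only through the aged groups, so these counts and medians are a description.

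**Figure D2:**
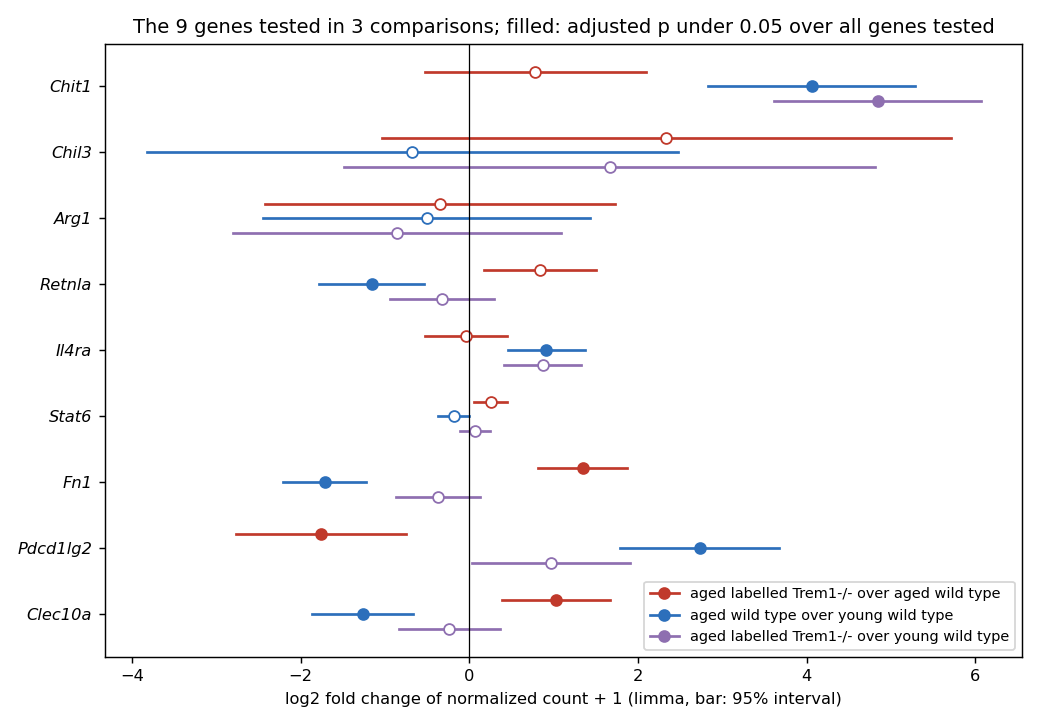
Log2 fold changes of the 9 tested genes in the 3 comparisons, named in the legend as first group over second, with 95% intervals from limma; filled points have an adjusted p under 0.05. Fn1 and Clec10a lie right of 0 for labelled Trem1-/- over aged wild type and left of 0 for aged over young wild type, Pdcd1lg2 lies the other way in both, and Chit1 lies right of 0 in both comparisons with young wild type. The intervals of Chil3 and Arg1 are the widest.

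Il4ra (chr7:125552120-125579474, plus strand, GRCm38) encodes the chain shared by the interleukin-4 and interleukin-13 receptors. Il4ra had 671, 1168 and 574 normalized counts in libraries 1, 2 and 3 labelled Trem1-/-, 791, 918 and 674 in aged wild type, and 438, 468, 408 and 364 in young wild type. Both aged groups lay above every young library, and they overlapped each other. Il4ra rose in aged against young wild type by a log2 fold change of 0.91 ± 0.21 (SE; limma, adjusted p = 0.00620), a mean of 794 ± 122 against 420 ± 44.5 (SD, n = 3 and 4), and the call held when any 1 library was left out. Its difference between libraries labelled Trem1-/- and aged wild type was -0.04 ± 0.22 (limma, adjusted p = 0.917), with a 95% interval of -0.53 to 0.45 on the log2 scale. Against young wild type the value under the Trem1-/- label was 0.87 ± 0.21 with a limma adjusted p of 0.0709, which passed with DESeq2 (0.00339), with every gene that had a read tested (0.0203), and without aged wild-type replicate 4 (0.0493). The other alternatives left it uncalled, with a limma adjusted p of 0.192 without young replicate E. B cells are also known to express Il4ra, and their summed markers were highest in aged wild type. Per 1000 B cell marker counts Il4ra was 58.6, 153 and 37.6 under the Trem1-/- label, 30.4, 54.8 and 27.5 in aged wild type and 70.3, 69.0, 70.6 and 110.4 in young wild type. On that scale aged wild type lay below young wild type without overlap, the reverse of the rise above, with a ratio of means of 0.469. The libraries labelled Trem1-/- overlapped both other groups there. The part of B cells in the Il4ra result was not tested. Exons of Il4ra overlap Gm44876 in the annotation, and strand-aware counting is not given in the sources used here.

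Stat6 (chr10:127642986-127660957, plus strand), the transcription factor that the receptor activates, varied least of the set. Stat6 had 894, 992 and 876 normalized counts in the libraries labelled Trem1-/-, 776, 765 and 774 in aged wild type and 901, 859, 862 and 894 in young wild type. All 3 aged wild-type libraries lay below the other 7, while the labelled Trem1-/- and young libraries overlapped. The log2 fold change of Stat6 was 0.25 ± 0.09 for labelled Trem1-/- against aged wild type (limma, adjusted p = 0.0665) and -0.19 ± 0.08 for aged against young wild type (adjusted p = 0.102), neither past the threshold. With TMM scaling both passed (limma, adjusted p = 0.0287 and 0.0313). The other alternatives left both uncalled, with limma adjusted p up to 0.204 and 0.183 without 1 library. Stat6 exons overlap those of Nab2.

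Retnla (chr16:48842551-48844461, plus strand) encodes RELMα, a secreted resistin-like protein. Retnla had 1063, 1165 and 481 normalized counts in libraries 1, 2 and 3 labelled Trem1-/-, 439, 624 and 382 in aged wild type and 1201, 1178, 790.2 and 1106 in young wild type. Aged wild type lay wholly below young wild type, whereas library 3 labelled Trem1-/- fell inside the aged wild-type range and the other two lay above it. Retnla fell in aged against young wild type by 1.16 ± 0.28 on the log2 scale (limma, adjusted p = 0.00892). For labelled Trem1-/- against aged wild type the difference was 0.83 ± 0.30 with a limma adjusted p of 0.0766. That value passed with DESeq2 (adjusted p = 0.0233), without library 3 labelled Trem1-/- (0.00822) and without aged wild-type replicate 4 (0.0337). The other alternatives left it uncalled, with a limma adjusted p of 0.238 without library 2 labelled Trem1-/-. The other members of the resistin-like family that were listed, 3 genes, stayed under the filter in every comparison.

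Clec10a (chr11:70156197-70170834, plus strand) encodes a galactose-binding lectin of macrophages and dendritic cells. Clec10a had 147, 165 and 90.6 normalized counts in the libraries labelled Trem1-/-, 42.2, 104 and 57.5 in aged wild type, and 140.3, 161, 150.1 and 164 in young wild type. Young wild type lay above aged wild type without overlap, and the lowest library labelled Trem1-/- lay below the highest of aged wild type. Clec10a rose under the Trem1-/- label against aged wild type by 1.03 ± 0.29 (limma, adjusted p = 0.0315). This call was lost without library 1 (limma, adjusted p = 0.0950) or 2 (0.110) labelled Trem1-/-, without aged wild-type replicate 3 (0.112) or 6 (0.0929), with the 2 groups fitted alone (0.0966) and without the trend (0.0559). In aged against young wild type Clec10a fell by 1.27 ± 0.27 (limma, adjusted p = 0.00455), and this call held in every fit that left out 1 library. Of the 50-base stretches of Clec10a exons, 9.02% also occur in other genes, most of all in Mgl2, its close paralog, so reads from those stretches are uncertain.

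Fn1 (chr1:71585520-71653200, minus strand), which encodes fibronectin, took 4.61%, 4.98% and 3.91% of all reads in libraries 1, 2 and 3 labelled Trem1-/-, against 1.38%, 2.18% and 2.26% in aged wild type and 5.52%, 5.84%, 5.64% and 6.82% in young wild type. By reads it ranked 1 in every young library, 2 in every library labelled Trem1-/-, and 4, 3 and 3 in aged wild type. Fn1 averaged 163071 ± 21918 normalized counts under the Trem1-/- label, 65326 ± 15753 in aged wild type and 210713 ± 24987 in young wild type (SD, n = 3, 3 and 4). The 3 groups did not overlap one another. Fn1 rose under the Trem1-/- label against aged wild type by 1.34 ± 0.24 (limma, adjusted p = 0.00484), a ratio of the means of 2.496. The log2 value stayed between 1.12 and 1.46, with adjusted p up to 0.0233, in the 10 fits that left out 1 library. In aged against young wild type Fn1 fell by 1.71 ± 0.23 (limma, adjusted p = 0.000375). Its value for labelled Trem1-/- against young wild type was -0.37 ± 0.23 (limma, adjusted p = 0.498).

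Fn1, Retnla and Clec10a moved in the same groups as the summed macrophage markers, so their counts were also set per 1000 of those marker counts, a ratio chosen after the values were seen and given without a test. Fn1 then had 2403, 2262 and 2271 under the Trem1-/- label, 1974, 2026 and 2353 in aged wild type, and 2704, 2752, 2595 and 3105 in young wild type. On this scale the labelled Trem1-/- and aged wild-type libraries overlapped, with a ratio of means of 1.09, and both lay below young wild type. Retnla had 15.6, 14.3 and 7.75 under the label, against 18.4, 16.7 and 12.3 in aged wild type and 16.7, 16.1, 10.3 and 13.9 in young wild type, and Clec10a likewise overlapped in all 3 pairs of groups. Stat6, whose normalized counts were lowest in aged wild type, was highest there per 1000 marker counts, with 13.1, 12.1 and 14.1 under the Trem1-/- label, 32.4, 20.5 and 24.9 in aged wild type and 12.5, 11.7, 11.2 and 11.2 in young wild type. Il4ra had 9.87, 14.3 and 9.24 under the label, 33.1, 24.6 and 21.7 in aged wild type and 6.09, 6.40, 5.33 and 4.56 in young wild type, so both aged groups stayed above young wild type and the libraries labelled Trem1-/- lay below aged wild type without overlap. The summed macrophage markers were lowest in aged wild type, at 23908 to 37293, which raises every ratio there. In normalized counts Il4ra overlapped between the aged groups, as given above. The part of macrophage content in the differences of Fn1, Retnla and Clec10a was not tested beyond these values. The part of B cells or other cells in the Stat6 and Il4ra values on this scale was not tested.

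**Figure D3:**
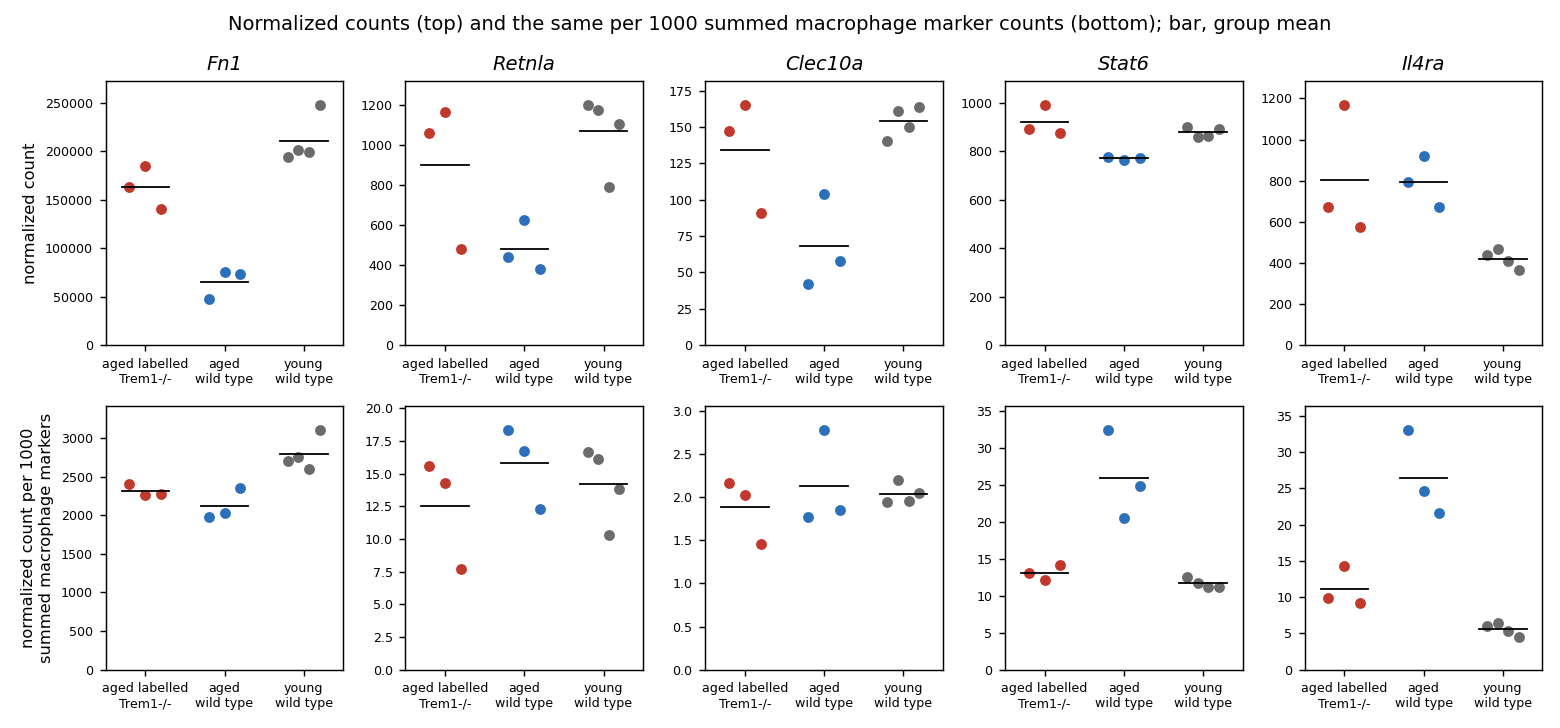
Normalized counts of 5 genes (upper row) and the same per 1000 summed counts of 10 macrophage markers (lower row) in every library, by group from left to right, aged labelled Trem1-/- (3), aged wild type (3) and young wild type (4); bars are group means and axes start at 0. In the upper row Fn1, Retnla and Clec10a have their lowest means in aged wild type; in the lower row the aged groups overlap for these 3 genes, while Stat6 and Il4ra are highest in aged wild type.

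Pdcd1lg2 (chr19:29410919-29471161, plus strand) encodes PD-L2, a ligand of the inhibitory receptor PD-1 that is made by dendritic cells, activated macrophages and peritoneal B-1 cells. Pdcd1lg2 had 21.5, 12.02 and 34.4 normalized counts in the libraries labelled Trem1-/-, 115, 61.1 and 54.8 in aged wild type and 14.8, 13.5, 4.80 and 10.5 in young wild type. Every aged wild-type library stood above the other 7, and the labelled Trem1-/- libraries overlapped young wild type. Pdcd1lg2 fell under the Trem1-/- label against aged wild type by 1.76 ± 0.46 (limma, adjusted p = 0.0230), and the call was lost without library 1 (0.0578) or 2 (0.0824) labelled Trem1-/- or aged wild-type replicate 3 (0.0926). In aged against young wild type it rose by 2.73 ± 0.43 (limma, adjusted p = 0.000863), a call that held in all 10 fits without 1 library. Summed B cell markers were likewise highest in aged wild type, and per 1000 of their counts Pdcd1lg2 was 1.87, 1.58 and 2.25 under the Trem1-/- label, 4.43, 3.65 and 2.24 in aged wild type and 2.37, 1.999, 0.830 and 3.17 in young wild type. On that scale all 3 groups overlapped, labelled Trem1-/- and aged wild type only by 2.253 against 2.239. Per 1000 macrophage marker counts it was 0.315, 0.147 and 0.555 under the label, 4.82, 1.64 and 1.76 in aged wild type and 0.0627 to 0.206 in young wild type, with aged wild type above both other groups. Of the 18 B cell markers, 8 were lower and none higher under the Trem1-/- label against aged wild type, with a median log2 fold change of -1.15, and 17 were higher in aged against young wild type, with a median of 2.10. Summed T and NK cell markers were 58.2 to 123 under the Trem1-/- label, 306 to 512 in aged wild type and 51.1 to 97.6 in young wild type, with 2 of the 13 at 0 in all libraries labelled Trem1-/-. Dendritic cell markers overlapped between the groups (508 to 661, 430 to 620 and 341 to 804). The part of B or T cell content in the Pdcd1lg2 result was not tested.

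Chit1 (chr1:134111242-134151540, plus strand) encodes chitotriosidase, a chitinase. It had 33.7, 24.8 and 36.7 normalized counts in the libraries labelled Trem1-/-, 7.68, 43.6 and 16.2 in aged wild type and 0, 0.616, 0 and 0 in young wild type. These stand for 96 reads over the 3 libraries labelled Trem1-/-, 64 over aged wild type and 1 read over the 4 young libraries, where the floor of 3 reads is 1.85 to 3.60 normalized counts. Both aged groups lay above every young library and overlapped each other. With reads scaled by the library factors, Chit1 was 102 times as frequent in aged as in young wild type, with a 95% counting interval of 17.6 to 4077, and 138 times as frequent under the Trem1-/- label as in young wild type, with an interval of 24.2 to 5519. On the log2 scale with 1 added, the difference was 4.06 ± 0.56 for aged against young wild type (limma, adjusted p = 0.000470) and 4.84 ± 0.56 for labelled Trem1-/- against young wild type (adjusted p = 0.00819). Since Chit1 passed the filter on low values only through the aged groups, these p-values describe the fit. The counting intervals pool the reads of each group and leave out the spread between libraries. The comparison therefore rests on the values per library above. The log2 value for labelled Trem1-/- against young wild type missed the threshold without library 3 labelled Trem1-/- (limma, adjusted p = 0.0541). Between labelled Trem1-/- and aged wild type the difference was 0.78 ± 0.60 (limma, adjusted p = 0.385), with a 95% interval of -0.53 to 2.09. Per 1000 macrophage marker counts both aged groups again lay above all young libraries, at 0.496, 0.304 and 0.592 under the Trem1-/- label, 0.321, 1.17 and 0.520 in aged wild type and at most 0.00841 in young wild type. Per 1000 B cell marker counts they did so too, at 2.40 to 3.26, 0.296 to 2.61 and at most 0.0908 in the same order of groups. Which cells the Chit1 reads came from was not tested. In the authors' deposited table the log2 fold change of Chit1 for aged against young wild type is 6.32 with an adjusted p of 1.84e-06.

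Among the genes whose levels ran closest to Chit1 over the 10 libraries, by the root-mean-square difference of gene-centred log2 values, were Gnb3 (0.85) and Cubn (0.94), where the median over 11505 other genes was 2.30. Cubn, the endocytic receptor cubilin, had 30.7, 32.0 and 31.0 under the label, 43.5, 69.8 and 48.5 in aged wild type and at most 6.005 in young wild type. For Pdcd1lg2 the closest were Rasal1 (0.35), Hepacam2 (0.38) and Krt222 (0.39), against a median of 1.30.

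Chil3 (chr3:106147554-106167564, minus strand) encodes Ym1, a chitinase-like protein of alternatively activated mouse macrophages that neutrophils also store. Chil3 had 1469, 9.61 and 11.5 normalized counts in libraries 1, 2 and 3 labelled Trem1-/-, 7.68, 30.6 and 4.49 in aged wild type and 19.2, 4.93, 19.2 and 45.3 in young wild type. Library 1 labelled Trem1-/- alone was high, and the other 9 ran from 4.49 to 45.3 with all groups overlapping. No comparison was called: the log2 fold change was 2.34 ± 1.54 for labelled Trem1-/- against aged wild type (limma, adjusted p = 0.309), and 0.01 without library 1. In aged against young wild type it was -0.67 ± 1.44 (limma, adjusted p = 0.751). Summed neutrophil markers, led by Csf3r, ran from 742 to 766 under the Trem1-/- label, from 219 to 563 in aged wild type and from 640.4 to 908 in young wild type, and 3 of the 12 were at 0 under the label. The neutrophil gene S100a8 had 5.11 normalized counts in library 1 labelled Trem1-/- and 16.4 at most in any library. The eosinophil granule gene Epx was at 0 in all 3 libraries labelled Trem1-/-. Prg2, another such gene, was at 0 in every library of all groups and does not separate them. Summed eosinophil markers, led by Alox15, ran from 11266 to 13286, from 4183 to 7008 and from 12652 to 13711 in the same order of groups. Siglecf and Ccr3, surface genes of eosinophils, each had 12.3 counts in library 1, and at most 7.21 elsewhere. The part of such cells in the Chil3 value was not tested. Of 50-base stretches of Chil3, 26.9% also occur in other genes, most of all in Chil4, which had at most 2.40 counts. The split of reads from those stretches is uncertain.

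Arg1 (chr10:24915221-24927484, minus strand) encodes arginase 1, which turns arginine into ornithine and urea. Arg1 had 2478, 129.8 and 286 normalized counts in libraries 1, 2 and 3 labelled Trem1-/-, 442, 1859 and 234 in aged wild type and 653, 523, 932 and 1419 in young wild type. Library 1 labelled Trem1-/- and aged wild-type replicate 4 were high, library 2 was lowest, and all groups overlapped. Its differences were -0.35 ± 0.95 for labelled Trem1-/- against aged wild type (limma, adjusted p = 0.825) and -0.51 ± 0.89 for aged against young wild type (adjusted p = 0.696). The first has a 95% interval of -2.43 to 1.72, which spans large changes in either direction. The ratio of the means, 1.14, has the opposite sign of the log2 value, since single libraries carry the means. Aged wild-type replicate 4 also held the most erythroid marker counts, 23863 against 538 and 476 in aged wild-type replicates 3 and 6. These counts ran from 17.2 to 58.5 under the Trem1-/- label and from 9.30 to 760.2 in young wild type. Library 1 labelled Trem1-/-, the highest for Arg1, held 22.5.

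Chil1 (chr1:134182176-134190181, plus strand), which encodes the chitinase-like protein also called YKL-40 in humans, was near the limit of detection. It had 1 read over the libraries labelled Trem1-/-, 5 over aged wild type and 8 over young wild type, at most 3.69 normalized counts in any library. The exact two-sided permutation p for the mean normalized count was 0.1 for labelled Trem1-/- against aged wild type, the smallest that 3 against 3 allows, and 0.686 for aged against young wild type. The libraries labelled Trem1-/- lay below those of aged wild type without overlap, at 1.02, 0 and 0 against 2.56, 1.09 and 1.80 normalized counts, all under the floor of 3 reads of their library. With 3 against 3 libraries the permutation test could not have passed the threshold at any depth, a limit that limma does not share. Among the other genes of the family, glycoside hydrolase family 18, 3 of 7 listed were tested: Chil5 was higher in aged against young wild type by 1.75 ± 0.48 (limma, adjusted p = 0.0163; 0.0858 without aged wild-type replicate 6) and the lysosomal chitobiase gene Ctbs was lower by a log2 fold change of -0.83 ± 0.20 (adjusted p = 0.00930).

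Of 12 tested genes of interleukin-4 and interleukin-13 signalling, none was higher and 1 was lower under the Trem1-/- label against aged wild type. Over all tested genes the shares were 11.5% and 6.82%. The lower gene was Jak3, a kinase of cytokine receptors in lymphoid and myeloid cells, with a log2 fold change of -1.004 ± 0.20 (limma, adjusted p = 0.00751). Jak3 had 139, 169 and 125 normalized counts under the Trem1-/- label, 293, 274 and 298 in aged wild type and 104, 159, 115 and 84.8 in young wild type, so aged wild type stood above the other 7. In aged against young wild type Jak3 was higher by 1.35 ± 0.19 (limma, adjusted p = 0.000483) and Il13ra1, the interleukin-13 receptor chain, lower by a log2 fold change of -1.14 ± 0.25 (adjusted p = 0.00463). There 4 of the 12 were higher and 1 lower, against 14.3% and 19% of all tested genes. The number higher was 1 without aged wild-type replicate 3, young replicate C or young replicate E, and 2 without young replicate A, since Jak1, Cish and Ptpn1 lay near the threshold. Without aged wild-type replicate 4, 1 gene was higher under the label. The list's median log2 fold change was -0.08 and 0.31 in these 2 comparisons. B cell markers had medians of -1.145 and 2.102 there, and T and NK cell markers -2.098 and 2.145. The part of B, T or NK cell content in the Jak3 result was not tested.

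Among 14 tested regulators of alternative activation, the transcription factor genes Maf, Cebpb and Bhlhe40 were higher and none was lower under the Trem1-/- label against aged wild type, while in aged against young wild type the same 3 were lower and Kdm6b and Trim24 higher. These 3 and 5 calls of 14 are near the shares of all tested genes that changed, 18.4% and 33.3%. Maf differed by 1.19 ± 0.19 and -1.24 ± 0.18 (limma, adjusted p = 0.00300 and 0.000542) and Cebpb by 1.37 ± 0.25 and -1.30 ± 0.24 (adjusted p = 0.00529 and 0.00180) in the 2 comparisons, calls that held without any 1 library. Cebpb had 1335, 2436 and 1694 normalized counts under the Trem1-/- label, 682, 621 and 746 in aged wild type and 1668, 1897, 1102 and 2256 in young wild type. Bhlhe40, itself a marker of large peritoneal macrophages, lost its first call without any of 4 libraries (adjusted p up to 0.0893) and its second without any of 7 (up to 0.179). Under the label 1 gene was lower without library 3 and 2 without aged wild-type replicate 4. The 2 higher calls of aged wild type became 0 without replicate 3 or 6, 6 without replicate 4, and 1 without young replicate C or E. Medians were 0.03 and 0.26. The macrophage markers had medians of 1.05 and -1.08 in the same 2 comparisons. The part of macrophage content in the Maf and Cebpb differences was not tested.

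Other genes that alternatively activated macrophages are known to express split between the directions, and 21 of 35 listed were tested. Under the Trem1-/- label against aged wild type 3 were higher and 3 lower, where 18.4% of all tested genes changed, and in aged against young wild type 5 were higher and 8 lower, where 33.3% of all changed. Alox15, a lipoxygenase of resident peritoneal macrophages, had 13155, 11692 and 11016 normalized counts under the Trem1-/- label, 3648, 6794 and 5581 in aged wild type and 12588, 12886, 13644 and 13468 in young wild type. It differed by 1.205 ± 0.19 and -1.35 ± 0.18 (limma, adjusted p = 0.00303 and 0.000390), and Cd36, a scavenger receptor, was higher by 1.01 ± 0.21 under the label (adjusted p = 0.00878). Igf1, a growth factor, was lower in aged against young wild type by a log2 fold change of -1.99 ± 0.29 (limma, adjusted p = 0.000568), whereas the activation marker Cd83 was higher by 2.57 ± 0.45 (adjusted p = 0.00146). The 3 lower calls under the label (Tfrc, Vegfa and the B cell marker Fcer2a) became 0 without library 1 or 3 labelled Trem1-/- and 1 without library 2, aged wild-type replicates 3 or 6, or young replicate C. The 3 higher calls became 5 without library 3 and 8 without aged wild-type replicate 4. Medians were 0.43 and -0.50. Alox15 is itself among the large peritoneal macrophage markers, and the part of macrophage content in its differences was not tested. Nor was the part of macrophage or B cell content in the Cd36, Igf1 and Cd83 differences tested.

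In arginine and polyamine metabolism, where arginase acts, 15 of 18 listed genes were tested. Aged wild type had 5 genes higher and 2 lower against young wild type, where 14.3% and 19% of all tested genes were higher and lower. Among the 5 were Ass1, which remakes arginine from citrulline, higher by 1.96 ± 0.34 (limma, adjusted p = 0.00143), Odc1, which makes putrescine from ornithine, by 1.32 ± 0.28 (adjusted p = 0.00396), and the arginine transporter Slc7a1 by 1.02 ± 0.28 (adjusted p = 0.0173). Without aged wild-type replicate 3 the number higher was 3. The 2 lower calls ranged from 0 to 3 when single libraries were left out, being 0 without aged wild-type replicate 3 or 6 or young replicate A and 1 without library 3 labelled Trem1-/- or young replicate B, C or E. Ass1 had 98.1, 99.3 and 215 normalized counts under the Trem1-/- label, 246, 164 and 366 in aged wild type and 65.4, 85.0, 68.5 and 39.5 in young wild type. Under the label Odc1 alone was called against aged wild type, lower by a log2 fold change of -1.08 ± 0.30 (limma, adjusted p = 0.0281), a call that was lost without any of the 3 libraries labelled Trem1-/- or aged wild-type replicate 3 or 6. Without aged wild-type replicate 4 the calls under the label were 2 higher and 4 lower. Medians were 0.09 and -0.17.

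Of 17 tested fibronectin receptors and matrix partners, 5 were higher and none lower under the Trem1-/- label against aged wild type (11.5% and 6.82% of all tested genes), and 3 were higher and 8 lower in aged against young wild type (14.3% and 19% of all). Itgb1, the beta chain of the classical fibronectin receptor, had 4866, 4668 and 4618 normalized counts under the label, 2499.7, 3194 and 2817 in aged wild type and 4627, 4268, 4681 and 5296 in young wild type. It differed by 0.74 ± 0.12 and -0.74 ± 0.11 (limma, adjusted p = 0.00325 and 0.000719). Its alpha partner Itga5 was higher under the label by 0.96 ± 0.23 (limma, adjusted p = 0.0160; 0.0504 without library 3 labelled Trem1-/-). The secreted matrix gene Tgfbi was lower in aged against young wild type by a log2 fold change of -2.19 ± 0.23 (limma, adjusted p = 0.000151), while the heparan sulphate proteoglycan Sdc4 was higher by 1.79 ± 0.17 (adjusted p = 0.000126). The 5 higher calls under the label became 3 without library 2 or 3 labelled Trem1-/- and 2 without aged wild-type replicate 3, and 1 gene was lower without replicate 4. The 8 lower calls became 4 without aged wild-type replicate 3 and 5 without replicate 6. Marker sums of macrophages, of B cells and of mesothelial cells and fibroblasts differed between the same groups, and their part in the list counts was not tested. Col1a1, Col1a2 and Col3a1 stand both in this list and among the mesothelial and fibroblast markers. Medians were 0.28 and -0.41.

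Of 6 tested partners of PD-L2 and B7 family genes, Cd274, which encodes PD-L1, was lower and Vsir, which encodes the inhibitory ligand VISTA, higher under the Trem1-/- label against aged wild type, where 18.4% of all tested genes changed. Cd274 had 139, 136 and 173 normalized counts under the label, 347, 206 and 333 in aged wild type and 99.4, 64.0, 48.0 and 55.8 in young wild type, and the 3 groups did not overlap one another. It differed by -0.95 ± 0.26 under the label (limma, adjusted p = 0.0286) and by 2.15 ± 0.25 in aged against young wild type (adjusted p = 0.000220). Vsir differed by 0.93 ± 0.24 (limma, adjusted p = 0.0216) and -0.95 ± 0.22 (adjusted p = 0.00690). Under the label both calls were lost without library 1 or 2 labelled Trem1-/- or aged wild-type replicate 3 or 6. Pdcd1, which encodes PD-1, had at most 9.88 counts in any library. Medians of the list were 0.07 and 0.16. In the same 2 comparisons B cell markers had medians of -1.145 and 2.102, and macrophage markers 1.05 and -1.08. The part of B cell or macrophage content in the Cd274 and Vsir differences was not tested.

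**Figure D4:**
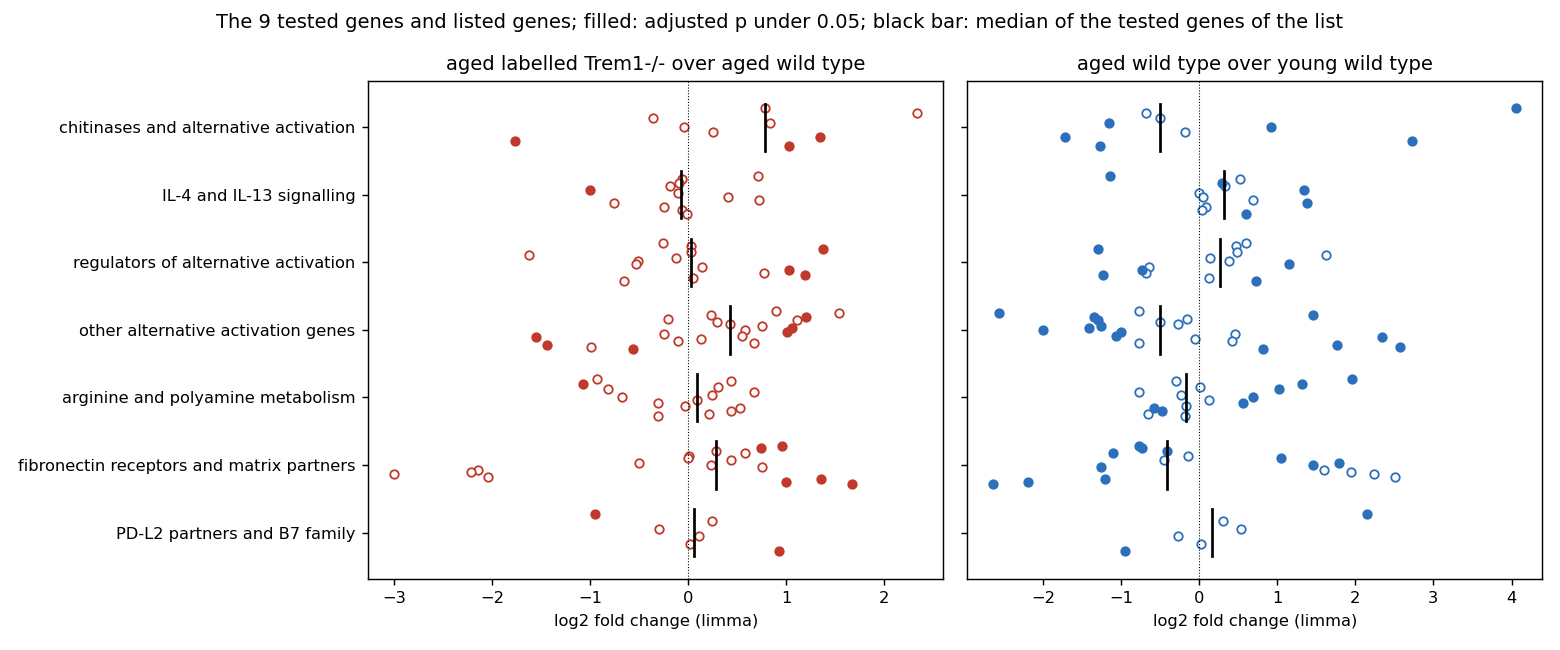
Log2 fold changes (limma) of the 9 tested genes and of the tested genes of 6 lists for labelled Trem1-/- over aged wild type (left) and aged over young wild type (right), 1 point per gene, filled where the adjusted p is under 0.05; black bars are list medians. Medians of the 6 lists lie between -0.50 and 0.43, and fibronectin partners have 5 filled points right of 0 in the left panel and 8 left of 0 in the right panel.

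Some of the 9 tested genes stood wholly apart between groups. That was so for 3 genes between labelled Trem1-/- and aged wild type (Fn1 and Stat6 above, Pdcd1lg2 below), where 34.9% of all tested genes did not overlap. It was so for 7 between aged and young wild type (Chit1, Il4ra and Pdcd1lg2 above, Retnla, Stat6, Fn1 and Clec10a below), against 40.3% of all genes. Between labelled Trem1-/- and young wild type it was so for 3 (Chit1 and Il4ra above, Fn1 below), against 15.8%. In the authors' deposited table for aged against young wild type, the log2 fold changes were -1.69 for Fn1, 2.78 for Pdcd1lg2, 0.92 for Il4ra, -1.15 for Retnla and -1.18 for Clec10a, each with an adjusted p of at most 0.000684, and that of Stat6 was -0.19 with an adjusted p of 0.0933.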

How the data were processed

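RNA from primary mouse peritoneal macrophages was sequenced in 10 libraries; per the labels' protocols, cDNA was made with a stranded Takara kit and libraries with a NEBNext kit. The submitters' processing notes name fastp, STAR, featureCounts 1.5.0-p3, DESeq2 1.20.0 and the build GRCm38; annotation and strand setting: not given in the sources used here. The authors deposited normalized counts (a signal, with its mean) for 54532 genes, and their comparison of aged with young wild type as a log2 fold change, a score and a p-value, raw and adjusted. Every deposited signal value was a whole multiple of 1 number per library (100% at a tolerance of 1e-06), so reads were recovered. Of the genes, 17593 had no read.

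Groups were taken from the labelled genotype and age. The test was limma 3.58.1 (R 4.3.3) with a trend on log2(normalized count + 1), which understates changes of low genes, in 1 model of 3 groups for the 11506 genes averaging 10 or more, with Benjamini-Hochberg adjustment at 0.05 per comparison. Alternatives were edgeR 4.0.16 and DESeq2 1.42.0 on recovered reads, TMM scaling, other pseudocounts and filters, and leaving out each library. Tested on simulated data for labelled Trem1-/- against aged wild type (11499 genes tested), the shares of 1.5-, 2- and 4-fold changes that limma recovered were 8.96%, 53.7% and 86.4%. For aged against young wild type (11501 genes) they were 10.4%, 56.7% and 95.5%. Only 67, 67 and 66 genes were changed at these sizes, whereas 2112 and 3837 were called in the data. The adjustment was thus stricter in the simulation, and the shares may understate recovery in the data. Floors are 3 reads (1.85 to 3.84 normalized counts); floors and the exact intervals of read ratios cover counting error alone, because reads that carry no molecular identifier may be copies of 1 molecule. Coordinates come from GENCODE M21, which 53749 symbols matched. The 10 genes and the lists around them were chosen with earlier results of these data known; from each list up to 4 called genes per comparison with the lowest adjusted p could be named, and for the 2 tested genes with the widest range of group means the 3 genes with the nearest pattern, of which 1 is not reported here.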

Additional observations from a re-analysis of the deposited data

Results flagged for a closer look

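Within the 4 young wild-type libraries, 39 genes were checked for a library far from the others (Dixon's rule at its 95% critical value), and chance flags about 1 in 20. Chit1 was set apart in young replicate B, at 0.616 normalized counts, which is 1 read beside 0 in the other three. Fn1 was highest in young replicate E, at 247959 normalized counts, against 194605 to 201352 in replicates A to C. Il13ra1, the interleukin-13 receptor chain, was lowest in young replicate E, at 67.4 normalized counts, against 77.6 to 78.2 in the other three. The aged groups have 3 libraries each and were not checked in this way, so the single high Chil3 library stands only in the values above.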

How the results depend on the processing

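No paired analysis was possible because the groups share only replicate number 3, fewer than the 2 numbers a block needs. Of the 9 tested genes' log2 fold changes, 473 values under an alternative kept direction and side of the threshold, 10 were weaker, 8 stronger and 15 changed sign; the cause was not tested. Sign changes were these. For labelled Trem1-/- against aged wild type, Il4ra was 0.017 with TMM and ranged from -0.34 to 0.17 without 1 library (0.06 without library 1, 0.17 without library 3 labelled Trem1-/-, 0.07 without aged wild-type replicate 4). Arg1 was 0.16 with edgeR and 0.16 with DESeq2 there, and -1.58 to 0.54 without 1 library (0.49 without aged wild-type replicate 4). Arg1 was -1.35 to 0.14 for aged against young wild type, and for labelled Trem1-/- against young wild type 0.13 with edgeR, 0.13 with DESeq2 and -2.08 to 0.038 without 1 library. In that comparison Chil3 ran from -0.67 to 2.89, Retnla from -0.56 to 0.077 and Clec10a from -0.41 to 0.022.

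Among the set's calls, the 2 higher under the Trem1-/- label against aged wild type became 1 with those 2 groups fitted alone and 1 without the trend (1 to 3 without 1 library), and the 1 lower became 0 with a filter of at least 50 (0 to 1). The 3 higher in aged against young wild type became 1 with that filter. For labelled Trem1-/- against young wild type the 1 higher became 2 with any read, 0 with the filter of 50 and 2 with DESeq2 (0 to 2). Over the whole table the first comparison gave 1327 higher and 785 lower, but 724 and 450 with 2 groups alone, and 762 to 1785 higher and 315 to 1015 lower without 1 library. The third gave 68 higher and 38 lower, but 161 and 102 with any read, 28 and 8 with the filter of 50, 151 and 147 with 2 groups alone, 13 and 11 without the trend, 253 and 195 with DESeq2, and 0 to 159 higher and 0 to 109 lower without 1 library. Depth limits Chil1 and the young level of Chit1, both at or under 3 reads per library except Chil1 in young replicate B.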

Other observations

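Set per 1000 summed counts of 13 large peritoneal macrophage markers in place of the general macrophage markers, Fn1 had 2574, 2906 and 2442 in the libraries labelled Trem1-/-, 2486, 2347 and 2683 in aged wild type and 3294, 3339, 3235 and 4182 in young wild type. The aged groups overlapped on this scale too, with a ratio of means of 1.05, and both lay below young wild type. Clec10a had 2.32, 2.60 and 1.57 in the libraries labelled Trem1-/-, 2.23, 3.22 and 2.11 in aged wild type and 2.37, 2.66, 2.44 and 2.76 in young wild type, and Retnla likewise overlapped between all groups. Of these 13 markers, 12 were higher and none lower for labelled Trem1-/- against aged wild type, and 13 were lower in aged against young wild type (limma, adjusted p under 0.05). Adgre1 and Itgam stand in both marker lists. This ratio was chosen after the values were seen and carries no test.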
